A study of Mus musculus domesticus and Mus musculus domesticus x Mus musculus castaneus and Mus musculus castaneus with 27 samples.

Results

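Motor neurons (MN) of the hybrid line CAS129 were compared with MN of the inbred strain 129S6/SvEv (129). The comparison used 5 of the 20 libraries analysed here, 3 of CAS129 MN and 2 of 129 MN, taken by the names of their columns of read counts. Of 27071 gene identifiers, 14837 reached 1 CPM (counts scaled to the size of the library, not to gene length) in at least 2 of the 14 MN libraries and were tested. Among them 1315 were set apart: 916 had 0 counts in every CAS129 MN library, 444 lay wholly inside a gene on the opposite strand, and 45 of these met both conditions. The other 13522 tested genes carry the main results.

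The series profiled the transcriptomes of pluripotent stem cells (PSC) and of MN made from stem cells in culture, in a study of how neurite growth varies between mouse subspecies. The strains are C57BL/6J (BL6), CAST/EiJ (CAST) and 129, with hybrids of CAST and 129 named CAS129 and 129CAS. CAS129 is labelled a first-generation hybrid of Mus musculus domesticus and Mus musculus castaneus, and the 129 libraries are labelled Mus musculus domesticus of the genotype 129S6/SvEv. No drug, transgene, age, day of culture, sex, clone number or batch is given for either group, and which parent of a hybrid was the mother is not stated. Both groups share the differentiation into MN, extraction with an RNAqueous-Micro kit, DNase treatment, capture of polyadenylated RNA and priming with random hexamers. The labels do not tell whether replicates are separate cultures. The p-values therefore measure the spread between replicate libraries, and that spread may be technical. It was estimated in a single fit over all 14 MN libraries, with 9 residual degrees of freedom. The 5 libraries of CAS129 MN and 129 MN on their own leave 3. The others come from BL6 MN, the only other MN group with replicates. The p-values thus rest largely on the spread within BL6 MN.

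Motor neurons are the cholinergic neurons that carry commands from the spinal cord to muscle. In culture they are made by leading stem cells through a neural progenitor stage, during which the pluripotency factors Pou5f1 and Zfp42 are switched off and neuronal genes such as Tubb3 are switched on. Such cultures can also hold undifferentiated cells and non-neuronal cells such as fibroblasts and epithelium. In first-generation hybrids each autosomal gene comes as a copy from each parental strain, so reads of both copies can add to its count where they are aligned and counted.

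Total counts were 6294099, 6069731 and 5612575 in CAS129 MN and 44572794 and 41751493 in 129 MN, so CAS129 values are the less precise of the pair at low counts. Replicates differed beyond sampling noise in every pair, with a chi-square per degree of freedom of 3.38 to 7.66 within CAS129 MN and 61.22 between the 129 MN libraries, a measure that also grows with depth. The summed level of 8 neuron markers was 815, 986 and 1047 CPM in CAS129 MN, 2632 CPM in 129 MN replicate 1 and 3810 CPM in replicate 2. One of the 8, Map2, was at 0 in CAS129 MN, and without it the 129 MN sums were 2199 and 3130 CPM. A sum over 7 fibroblast and mesenchyme markers went the other way, at 20548, 20263 and 22569 CPM in CAS129 MN against 8379 and 4843 CPM in 129 MN. The 2 libraries of 129 MN thus stood apart from each other in these markers, and results that turn on 1 of them are given with that library left out. In bulk RNA, fewer cells of a type and less RNA per cell cannot be told apart.

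The motor neuron label was checked on 10 markers, of which 2 were called lower in CAS129 MN and none higher. Both counts were below the shares over all tested genes, 31.4% lower and 25.2% higher. They are not read as a result about the markers. Their summed level was 318, 357 and 404 CPM in CAS129 MN and 495 and 675 CPM in 129 MN. Most of the 129 MN sums came from Prph, whose levels are given with the motor neuron list below. Without Prph the sums of the 2 groups overlapped. The sum was 1284 CPM in 129CAS MN and 1999 CPM in CAST MN. All 10 were measured in 129 MN and 9 in CAS129 MN, where Lhx3, a LIM-homeodomain factor of early motor neurons, was at 0 and its level in 129 MN was also only 0.2 and 0.183 CPM. Isl1, a LIM-homeodomain factor required for motor neuron fate, was at 7.28, 10.3 and 12.4 CPM in CAS129 MN and at 10.3 and 13.6 CPM in 129 MN. Chat, the enzyme that makes acetylcholine, was at 1.62, 3.17 and 6.19 CPM against 3.92 and 5.52 CPM. Mnx1, a homeobox factor of motor neurons, was at 1.62, 0.833 and 3.36 CPM against 1.36 and 1.96 CPM. For these 3 genes the groups overlapped, and none passed the quasi-likelihood test of edgeR after Benjamini-Hochberg adjustment (adjusted p = 0.56, 0.56 and 0.82). Defining motor neuron factors were thus measured at low levels in both groups, while 129CAS MN was at 65.1 CPM and CAST MN at 76.9 CPM for Isl1.

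The first class set apart holds the 916 tested genes with no read in any CAS129 MN library. They were chosen by those counts, so they are described without a test. Of them, 782 were protein coding, 782 were also at 0 in the single 129CAS MN library, 846 at 0 in both CAS129 PSC libraries, and 765 at 0 in all 3 of those libraries. Their median level in 129 MN was 10.4 CPM. Among the 540 that reached 5 CPM in 129 MN, 529 were below 1% of the 129 level in 129CAS MN. In the inbred strains the picture differed, since CAST MN reached at least 25% of the 129 level for 507 of the 540 and BL6 MN for 492.

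The 8 genes of this class with the highest CPM in 129 MN, a scale not adjusted for gene length, were Peg10, Ccn2, Tmsb10, Ccn1, Actg1, Mprip, Ank2 and Sept11. Peg10, a paternally expressed gene derived from a retrotransposon, was at 2405 and 2706 CPM in 129 MN, 2185 CPM in CAST MN and 588 to 1171 CPM in the 7 BL6 MN libraries, and had no read in CAS129 MN, 129CAS MN or CAS129 PSC. Against a floor of 3 counts over the 3 CAS129 MN libraries, which is 0.168 CPM, Peg10 was at least 15193-fold lower in CAS129 MN. Ccn2, a secreted matricellular protein with 23.2% of its exon bases overlapped, was at 2231 and 1599 CPM in 129 MN, which makes it at least 11386-fold lower. Actg1, the cytoplasmic gamma actin that nearly every cell uses, was at 836 and 662 CPM in 129 MN and 1548 to 2596 CPM in BL6 MN. All 8 genes had 0 reads in the 5 CAS129 libraries, MN and PSC together, and in 129CAS MN.

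Neuronal genes were also in this class. Mapt, which encodes the axonal microtubule protein tau, was at 455 and 697 CPM in 129 MN, and Map2, which encodes its dendritic counterpart, at 434 and 681 CPM. These 2 genes were named after their values were seen, and each had 0 reads in all 3 CAS129 MN libraries and in 129CAS MN. The genome or transcript set to which reads of the hybrids were aligned is not stated in the labels or the processing notes, and its part in these values was not tested. The boundary of the class is not sharp: of 10450 genes that had a CAS129 MN read and reached 5 CPM in 129 MN, 95 were below 2% of the 129 level in CAS129 MN, and 86 of those 95 were below 10% of it in 129CAS MN. A further 266 lay between 2% and 10%, of which 101 were below 10% in 129CAS MN.

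**Figure D1:**
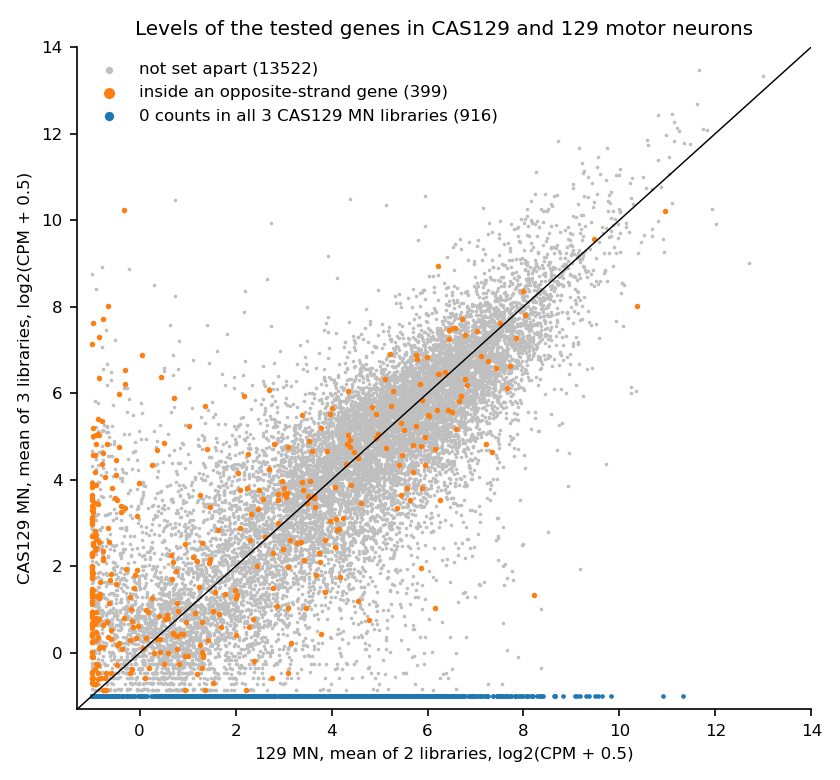
Mean level of each tested gene in 129 MN (x axis, 2 libraries) and CAS129 MN (y axis, 3 libraries), both as log2 of CPM plus 0.5, with the line of equal levels. The 916 genes at 0 in CAS129 MN form the row of points along the bottom over the whole range of 129 levels, and genes inside an opposite-strand gene gather at the left edge, where 129 MN is near 0.

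The second class set apart holds the 444 tested genes that lie inside a gene of the opposite strand, where reads counted without regard to strand cannot be told apart. Whether counting used strand is not stated in the labels or the processing notes. With 56.7% of all tested genes called in either direction 25.2% called higher and 31.4% called lower, 193 of the 444 were higher in CAS129 MN (43.5%) and 93 lower (20.9%). Their median log2 difference, CAS129 minus 129, was 0.83, against -0.14 over all tested genes. Of the 399 that were not at 0 in CAS129 MN, 148 were fitted at over 8-fold higher there, 37.1% against 4.83% of all tested genes. Of these 148, 142 were below 1 CPM in 129 MN, 98 were not protein coding, and 137 were under 1/8 of the CAS129 level in 129CAS MN. BL6 MN reached at least 25% of the CAS129 level for 132 of them and CAST MN for 122.

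Gm29233, a gene inside Thbs1, was at 1264, 1135 and 1225 CPM in CAS129 MN and at 0.134 and 0.456 CPM in 129 MN. Its level was 0.247 CPM in 129CAS MN, 288 CPM in CAST MN and 426 to 1576 CPM in BL6 MN. It lies on chromosome 2 from 118123451 to 118124047 (GRCm38), on the minus strand, and 74% of its exon bases overlap exons of the opposite strand. Low values in both 129 and 129CAS were common in the class, as the counts above give, and the 129 and 129CAS libraries are also the 3 deepest of the MN libraries. Nefl, the light neurofilament gene, lies inside the annotated span of Nefm and went the other way: it was at 191, 270 and 318 CPM in CAS129 MN against 1090 and 1554 CPM in 129 MN.

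Overlap was also examined outside both classes. The 2763 genes there with some opposite-strand exon overlap had a median log2 difference of 0.27, with 37.9% called higher and 22.5% lower. The median was 0.06 for genes with up to 10% of their exon bases overlapped, with 30.3% called higher. It was 0.47 from 10% to 25%, 0.76 from 25% to 50%, 1.52 over the 80 genes from 50% to 75% and 1.44 over the 29 genes above 75%, where 62.1% were called higher. The part of strand counting in this was not tested. Overlap of more than 5% of exon bases is given with the genes named below, and it was 0.486% to 2.85% for Col5a1, P2rx3, Plagl1, Sf3b3, Xist and mt-Nd6.

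Outside both classes, 7343 of 13522 genes passed the test (54.3%), 3549 of them higher in CAS129 MN (26.2%) and 3794 lower (28.1%). Their median log2 difference was -0.06. Which direction held more calls depended on the scaling, with 3677 higher and 3647 lower under RLE scaling and 4237 higher and 3124 lower under upper-quartile scaling. With 10759 genes free of any opposite-strand exon overlap, 52.7% passed, 23.3% higher and 29.5% lower. CAS129 and 129 values did not overlap for 77.6% of the 13522 genes, with CAS129 above for 36.5% and below for 41%. The gene lists below are set against these shares, 26.2% higher and 28.1% lower. Where a list is near or below them, its counts are not read as a result about the list. This holds for glial, spinal interneuron, sensory neuron and maternally expressed genes and for the Onecut and ventral interneuron list. Of the 5 libraries, leaving out 129 MN replicate 2 gave the fewest calls outside the classes, 5146.

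The pluripotency network was higher in CAS129 MN. Of 22 tested members of the naive pluripotency list, 19 rose, none fell and 3 did not pass, with a median log2 difference of 5.81. Zfp42 (chromosome 8, 43295063 to 43306980, GRCm38), a zinc finger gene that marks naive stem cells, was at 167, 153 and 56.4 CPM in CAS129 MN and at 3.05 and 2.05 CPM in 129 MN. The difference was 5.62 ± 0.50 on the log2 scale (SE, n = 3 and 2, adjusted p = 7.7e-07, quasi-likelihood test of edgeR after Benjamini-Hochberg adjustment). All 3 hybrid libraries were above both 129 libraries, and CAS129 MN replicate 3 was the lowest of the 3.

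Pou5f1, the POU factor at the centre of the network, was at 170, 170 and 62.2 CPM in CAS129 MN and at 0.0445 and 0.114 CPM in 129 MN (log2 difference 10.58 ± 0.74, adjusted p = 7e-08). Tdgf1, a co-receptor for Nodal, was at 229, 222 and 78.3 CPM against 0.178 and 0.0456 CPM (10.51 ± 0.69, adjusted p = 3.5e-08). Esrrb, an orphan nuclear receptor of naive cells, was at 114, 123 and 43.5 CPM against 1.09 and 1.41 CPM (6.22 ± 0.88). In each of these genes replicate 3 had the lowest CAS129 level and the groups did not overlap. Tet1, a 5-methylcytosine dioxygenase, was at 177, 183 and 62.7 CPM against 28.2 and 39.1 CPM (2.06 ± 0.50, adjusted p = 0.0036). Gdf3, a TGF-beta family ligand of stem cells, was at 24.3, 26.3 and 7.78 CPM with no read in 129 MN, at least 576-fold higher against a floor of 0.0338 CPM over the 2 libraries.

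These genes were higher still in CAS129 PSC, whose CPM were scaled separately, with Zfp42 at 716 and 581 CPM and Pou5f1 at 745 and 859 CPM. The sum of 6 measured pluripotent cell markers was 886, 914 and 337 CPM in CAS129 MN, 7.62 and 5.13 CPM in 129 MN, 8.1 CPM in 129CAS MN and 3232 and 2777 CPM in CAS129 PSC. For 17 of the 19 members that rose, all 3 CAS129 MN libraries were above each of the 11 other MN libraries, against 56.7% of all called rises outside the classes set apart. Whether the signal came from a few undifferentiated cells or from low levels in many cells cannot be told apart here.

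**Figure D2:**
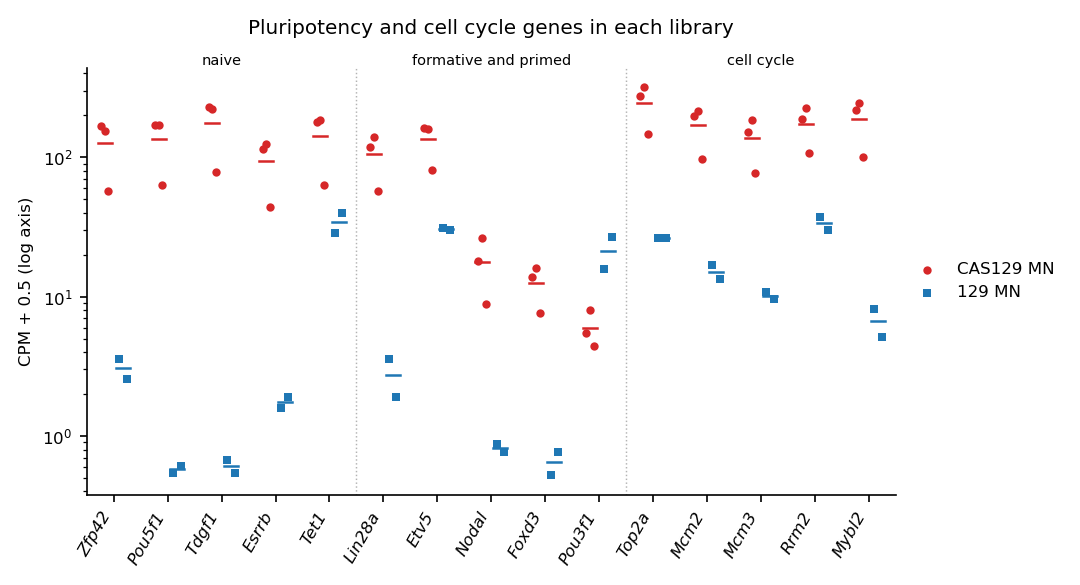
Level of 15 pluripotency and cell cycle genes in each library as CPM plus 0.5 on a log axis, with 3 CAS129 MN libraries (circles) and 2 129 MN libraries (squares) and a line at each group's mean. CAS129 points lie above 129 points for every gene drawn but Pou3f1, which was at 5.02, 7.5 and 3.89 CPM in CAS129 MN and 15.4 and 26.3 CPM in 129 MN.

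Formative and primed pluripotency genes were split. Of 15 tested, 8 rose and 1 fell, with a median of 1.32. Lin28a, an RNA-binding protein that blocks let-7 processing, was at 118, 138 and 56.4 CPM in CAS129 MN and 3.05 and 1.39 CPM in 129 MN (5.54 ± 0.64, adjusted p = 9.9e-06, with 5.86% of its exon bases overlapped). Etv5, an ETS factor downstream of FGF signalling, was at 162, 160 and 80.1 CPM against 30.3 and 29.3 CPM (2.17 ± 0.32). Pou3f1, a POU factor of primed cells that developing neurons also use, fell by 1.93 on the log2 scale. Without 129 MN replicate 2 its adjusted p was 0.051. Of 6 germline genes 3 rose and 1 fell, and Stra8, a gene of meiotic entry, was at 3.56, 8.67 and 3.71 CPM against 0.245 and 0.297 CPM. The 3 germline rises numbered 1 without 129 MN replicate 1 or CAS129 MN replicate 2 and 0 without 129 MN replicate 2.

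Cell cycle genes rose with them. Among 18 tested members outside the classes set apart, 16 rose and none fell, with a median of 2.98. Top2a, the topoisomerase of dividing cells, was at 272, 317 and 145 CPM in CAS129 MN and at 25.7 and 26 CPM in 129 MN (3.24 ± 0.77, adjusted p = 0.003). Mcm2 and Mcm3, subunits of the replicative helicase, were at 198, 214 and 96.7 CPM against 16.4 and 12.8 CPM and at 151, 183 and 76.2 CPM against 10.3 and 9.04 CPM. Rrm2, a subunit of ribonucleotide reductase, was at 187, 224 and 106 CPM against 36.8 and 29.3 CPM (2.38 ± 0.63, adjusted p = 0.0059, and 0.057 without 129 MN replicate 2). As with the pluripotency genes, CAS129 MN replicate 3 was the lowest of its group in all 4, and the groups did not overlap. For 14 of the 16, CAS129 MN was above all 11 other MN libraries, against 56.7% of all called rises outside the classes set apart. Pcna and Tyms, a sliding clamp and a nucleotide synthesis enzyme of dividing cells, were at 0 in CAS129 MN and belong to the first class.

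Neuronal genes shared by all neuron types were lower in CAS129 MN. Of 19 pan-neuronal genes tested outside the classes set apart, 13 fell and none rose, with a median of -1.52. Stmn2, a tubulin-binding protein of growing axons, was at 83.3, 86.5 and 88 CPM in CAS129 MN and at 410 and 584 CPM in 129 MN (fell by 2.53 ± 0.40 on the log2 scale, adjusted p = 0.00016). Ncam1, a neural adhesion molecule, was at 343, 385 and 430 CPM against 677 and 783 CPM (fell by 0.92 ± 0.24, adjusted p = 0.0053). Nefm, the medium neurofilament gene, with 19.2% of its exon bases overlapped by Nefl, was at 312, 388 and 425 CPM against 887 and 1241 CPM (adjusted p = 0.0058, and 0.058 without 129 MN replicate 2). Tubb3, the neuronal beta-tubulin, was at 268, 309 and 317 CPM against 450 and 549 CPM and did not pass (adjusted p = 0.076), although the groups did not overlap. With 129 MN replicate 2 left out, 8 of the 19 fell in place of 13.

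Synaptic genes were lower as well. Of 30 tested, 26 fell and none rose, with a median of -1.88, and 9 of the 30 have some opposite-strand exon overlap. Syt4, a synaptotagmin of vesicle traffic with 14.5% of its exon bases overlapped, was at 146, 188 and 200 CPM in CAS129 MN and at 345 and 546 CPM in 129 MN (adjusted p = 0.012, and 0.13 without 129 MN replicate 2). Snap25, a membrane fusion protein of nerve endings, was at 34.8, 38.3 and 50.7 CPM against 94.9 and 161 CPM (adjusted p = 0.01, and 0.11 without that library). In 129CAS MN, 22 of the 26 were at 50% or more of their 129 level and none was under 10% of it. For 23 of the 26, all CAS129 MN libraries were below the 11 other MN libraries, against 39.9% of all called falls outside the classes set apart. Without 129 MN replicate 2, 17 of the 30 fell.

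Ion channel genes moved in the same direction, with 18 of 23 lower, none higher and a median of -1.56. Cacna1a, the pore subunit of P/Q-type calcium channels that trigger transmitter release, was at 30.4, 48.8 and 38.2 CPM in CAS129 MN and at 186 and 236 CPM in 129 MN (fell by 2.43 ± 0.30, adjusted p = 2e-05). Scn3a, a voltage-gated sodium channel of developing neurons, was at 27.2, 28.7 and 37.5 CPM against 96 and 157 CPM (fell by 2.03 ± 0.47, adjusted p = 0.0028). The groups of both genes were separate. Without 129 MN replicate 2 the list's falls numbered 9.

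The motor neuron list itself was mixed. Of 21 tested outside the classes set apart, 2 rose, 8 fell and 11 did not pass, with a median of -0.55. Gfra1, the receptor through which motor neurons bind the survival factor GDNF, was at 16.8, 23.2 and 22.6 CPM in CAS129 MN and at 137 and 219 CPM in 129 MN (fell by 3.09 ± 0.43, adjusted p = 5.3e-05). Prph, the intermediate filament peripherin, was at 125, 146 and 183 CPM against 311 and 431 CPM (adjusted p = 0.022). The call of Prph was lost without 129 MN replicate 2 (0.14), CAS129 MN replicate 1 (0.075) or CAS129 MN replicate 2 (0.059). Slit2, an axon guidance ligand, was at 156, 141 and 159 CPM against 215 and 273 CPM (adjusted p = 0.015, with 0.15 without 129 MN replicate 2, 0.05 without CAS129 MN replicate 2 and 0.061 with upper-quartile scaling). Falls numbered 4 without 129 MN replicate 2 and 5 without CAS129 MN replicate 2. The 2 rises numbered 1 without 129 MN replicate 1 and 0 without replicate 2.

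**Figure D3:**
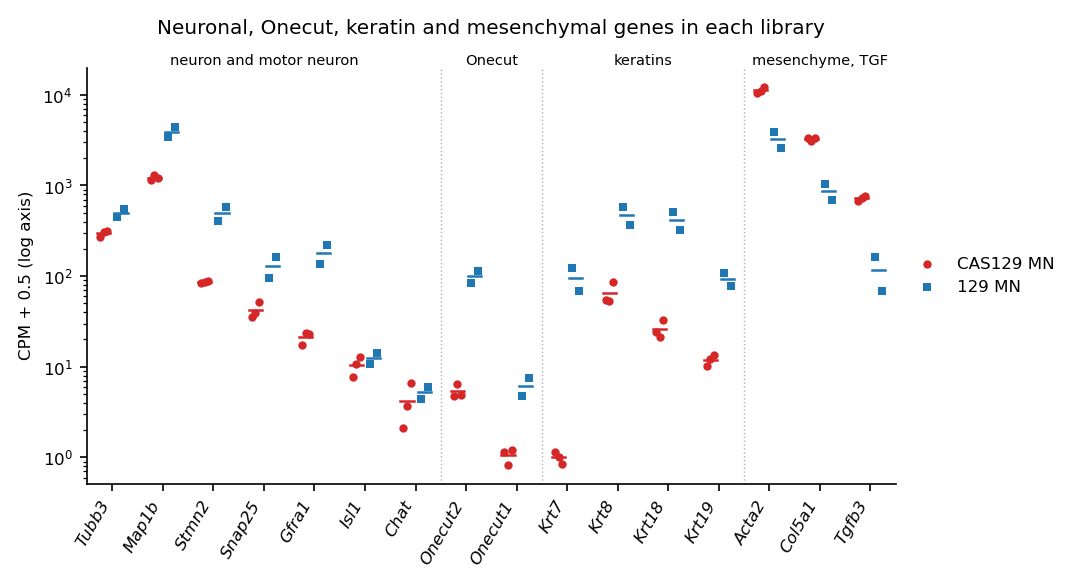
Level of 16 neuronal, Onecut, keratin and mesenchymal genes in each library as CPM plus 0.5 on a log axis, with 3 CAS129 MN libraries (circles), 2 129 MN libraries (squares) and a line at each group's mean. The groups overlap for Isl1 and Chat and are separate for the other 14 genes, with CAS129 higher for Acta2, Col5a1 and Tgfb3.

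Onecut2 fell strongly. Onecut factors are homeodomain proteins that act in early motor neurons and in some spinal interneurons. Onecut2 (chromosome 18, 64340020 to 64400987) was at 4.21, 6 and 4.42 CPM in CAS129 MN and at 83.3 and 114 CPM in 129 MN (fell by 4.33 ± 0.37 on the log2 scale, adjusted p = 4.9e-07). The 129CAS MN library was at 144 CPM, CAST MN at 191 CPM and BL6 MN at 12.8 to 31.8 CPM, so CAS129 MN was lowest of all. Onecut1 was at 0.647, 0.333 and 0.707 CPM against 4.32 and 6.96 CPM (adjusted p = 0.0086). Onecut3 was at 0.324, 0.833 and 0.353 CPM against 1.34 and 1.89 CPM and did not pass (adjusted p = 0.077).

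Of 13 tested genes of the Onecut and ventral interneuron list, 4 fell and 3 rose, near the shares over all genes outside the classes set apart. Gata2, a zinc finger factor of V2b interneurons, was at 6.8, 4.83 and 8.48 CPM in CAS129 MN and at 19.5 and 22.8 CPM in 129 MN (adjusted p = 0.0058). Foxp2, a forkhead factor of V1 interneurons, was at 26.9, 25.8 and 24.6 CPM against 4.21 and 4.7 CPM (2.53 ± 0.45, adjusted p = 0.00036). Of 16 spinal interneuron genes, 3 fell and 1 rose, and none rose when 129 MN replicate 1, 129 MN replicate 2 or CAS129 MN replicate 3 was left out. Both counts were below the shares over all genes outside the classes set apart, 28.1% lower and 26.2% higher. Slc17a6, the vesicular glutamate transporter, was at 5.5, 10.7 and 13.3 CPM against 41.2 and 48.4 CPM (fell by 2.19 ± 0.62, adjusted p = 0.0087). Of 10 sensory neuron genes, 3 rose and 3 fell, near those shares over all genes. P2rx3, an ATP-gated channel of pain fibres, was at 1.62, 1.67 and 1.24 CPM against 7.33 and 6.8 CPM (adjusted p = 0.0011). The 3 sensory rises numbered 0 without 129 MN replicate 1 and 1 without replicate 2.

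Hox genes, which set position along the body axis, fell in 12 of 24 cases and rose in 3, with a median of -0.74. Hoxb6 was at 18.8, 20 and 14.5 CPM in CAS129 MN and at 56.5 and 49.4 CPM in 129 MN (fell by 1.57 ± 0.25, adjusted p = 0.00017). Hoxb8 was at 26.1, 36.7 and 30.8 CPM against 51.4 and 51 CPM (adjusted p = 0.0097). Hoxb2, of a more anterior position, was at 53.1, 59 and 56.4 CPM against 37.8 and 35.2 CPM (adjusted p = 0.044). Without 1 of the 2 129 MN libraries 1 Hox gene rose, and the call of Hoxb2 was lost without any 1 of the 5 libraries (adjusted p = 0.066 to 0.19), with 129 counts thinned (0.063) and with no filter on low counts (0.068). Only 1 of the 12 Hox genes that fell was below every other MN library in CAS129 MN. The share over all called falls outside the classes set apart was 39.9%.

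Neural progenitor genes had no common direction, with 4 higher and 6 lower of 16. Nes, an intermediate filament of progenitors that fibroblasts in culture also express, was at 966, 890 and 955 CPM in CAS129 MN and at 321 and 223 CPM in 129 MN (1.79 ± 0.38, adjusted p = 0.0014). Hes1, a Notch target that keeps progenitors from differentiating, was at 6.47, 6.5 and 7.6 CPM against 41.1 and 33.6 CPM (fell by 2.45 ± 0.30, adjusted p = 1.8e-05), but was also at 6.68 CPM in 129CAS MN. The 6 falls numbered 2 without 129 MN replicate 2, CAS129 MN replicate 1 or CAS129 MN replicate 2, and the 4 rises numbered 2 without 129 MN replicate 1. Of 9 glial genes, 2 rose and 1 fell, and 1 rose without 129 MN replicate 1. Both glial counts were below the shares over all genes outside the classes set apart, 26.2% higher and 28.1% lower. Cspg4, a proteoglycan of oligodendrocyte precursors and pericytes, was at 28.3, 26.2 and 31.6 CPM against 3.27 and 2.65 CPM (3.27 ± 0.52, adjusted p = 0.00016).

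Genes of axon growth and regeneration were mostly lower, with 18 of 30 lower, 3 higher and a median of -1.02. Map1b, a microtubule-associated protein of growing axons, was at 1151, 1316 and 1196 CPM in CAS129 MN and at 3415 and 4403 CPM in 129 MN (fell by 1.68 ± 0.30, adjusted p = 0.0004). Jun, a transcription factor induced by axon injury, was at 76.7, 71.2 and 70 CPM against 151 and 190 CPM (fell by 1.23 ± 0.17, adjusted p = 4.7e-05). Dpysl3, a collapsin response mediator, went the other way, at 3631, 3624 and 3868 CPM against 1386 and 1669 CPM (1.28 ± 0.20, adjusted p = 0.00014). Basp1, a growth cone protein, was at 842, 931 and 830 CPM against 417 and 521 CPM (0.89 ± 0.24, adjusted p = 0.0073, and 0.078 without 129 MN replicate 1). Gap43, a growth cone protein often measured beside it, was at 145, 167 and 217 CPM against 264 and 392 CPM and did not pass (adjusted p = 0.12). For 13 of the 18 that fell, CAS129 MN was below all 11 other MN libraries. Over all called falls outside the classes set apart this share was 39.9%.

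Receptors and effectors of growth inhibition fell in 10 of 16 cases and none rose, with a median of -0.86. Ptprf, a receptor phosphatase that binds proteoglycans, was at 324, 342 and 305 CPM in CAS129 MN and at 583 and 537 CPM in 129 MN (fell by 0.79 ± 0.17, adjusted p = 0.0014). Epha4, an ephrin receptor that repels axons, was at 110, 106 and 104 CPM against 196 and 163 CPM (fell by 0.75 ± 0.17, adjusted p = 0.0026). Rock1, a kinase that collapses growth cones, was at 82, 89.2 and 87.1 CPM against 170 and 157 CPM (fell by 0.92 ± 0.25, adjusted p = 0.0067). The values of the 3 genes did not overlap between the groups. Both lists, of growth and of its inhibition, thus held more falls than rises.

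Activin and TGF-beta genes were split, with 5 higher and 10 lower of 25 and a median of -0.38. Activins and TGF-betas are secreted dimers that signal through serine-threonine kinase receptors to Smad factors, and follistatin binds and blocks activin. Inhba, the subunit of activin A, was at 294, 251 and 254 CPM in CAS129 MN and at 248 and 172 CPM in 129 MN and did not pass (adjusted p = 0.48). Fst, which encodes follistatin, was at 141, 135 and 149 CPM against 310 and 276 CPM (fell by 1.05 ± 0.17, adjusted p = 0.00021). The ligand Tgfb3 was at 680, 729 and 768 CPM against 164 and 67.9 CPM (2.65 ± 0.48, adjusted p = 0.00048). Ltbp2, a latent TGF-beta binding protein of the matrix, was at 1217, 1160 and 1302 CPM against 419 and 242 CPM (1.89 ± 0.31, adjusted p = 0.00019). The receptor Tgfbr2 was at 107, 118 and 120 CPM against 203 and 171 CPM (fell by 0.70 ± 0.19, adjusted p = 0.0059, and 0.062 without 129 MN replicate 1).

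Mesenchymal and fibroblast genes were higher in CAS129 MN, with 13 of 18 higher, 1 lower and a median of 1.54. Acta2, the smooth muscle actin of contractile fibroblasts, was at 10552, 11092 and 12273 CPM in CAS129 MN and at 3883 and 2594 CPM in 129 MN (1.80 ± 0.48, adjusted p = 0.0059, and 0.069 without 129 MN replicate 2). Col5a1, a fibrillar collagen, was at 3302, 3086 and 3301 CPM against 1025 and 695 CPM (1.91 ± 0.29, adjusted p = 0.00012). Col1a1, the main collagen of connective tissue, was at 5581, 5393 and 5782 CPM against 2961 and 1439 CPM (1.34 ± 0.50, adjusted p = 0.035). The groups did not overlap in these genes, but the call of Col1a1 was lost without 129 MN replicate 2 (0.26) and without CAS129 MN replicate 1 (0.065), 2 (0.061) or 3 (0.068). Without 129 MN replicate 2, 7 of the 18 rose. In BL6 MN the levels reached past those of the hybrid for Col1a1, at 4115 to 12479 CPM. For only 4 of the 13 rises was CAS129 MN above all 11 other MN libraries. Over all called rises outside the classes set apart this share was 56.7%.

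Epithelial genes went the opposite way, with 10 of 17 lower, none higher and a median of -2.20. Keratins 7, 8, 18 and 19 form the intermediate filaments of simple epithelia. Krt7 (chromosome 15, 101411043 to 101430313) was at 0.647, 0.5 and 0.353 CPM in CAS129 MN and at 123 and 68.4 CPM in 129 MN (fell by 7.55 ± 0.53, adjusted p = 7.3e-08). Krt8 was at 54.1, 52.7 and 85.9 CPM against 577 and 366 CPM (fell by 2.88 ± 0.63, adjusted p = 0.0018). Krt18, the partner of Krt8 in filaments, was at 23.5, 20.8 and 32 CPM against 506 and 321 CPM (fell by 4.02 ± 0.58, adjusted p = 7e-05), and Krt19 was at 9.71, 11.8 and 12.9 CPM against 107 and 76.9 CPM. In all 4 keratins 129 MN replicate 1 was the higher of its pair and both were above every CAS129 MN library.

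The 129 libraries were above all BL6 MN libraries for keratins 8, 18 and 19, since BL6 MN was at 37.5 to 194 CPM for Krt8, 37.9 to 159 CPM for Krt18 and 8.81 to 27.7 CPM for Krt19. The 129CAS MN library was at 789, 325 and 131 CPM for the 3 genes, at or above the lower 129 MN library in each, and at 7.11 CPM for Krt7. Krt7 was at 3.71 to 9.6 CPM in BL6 MN and 14.7 CPM in CAST MN, so CAS129 MN was below every other MN library for this gene. Cldn4, a tight junction claudin, was at 9.87, 8.5 and 11.5 CPM in CAS129 MN and at 167 and 100 CPM in 129 MN (fell by 3.75 ± 0.54). Cdh1, a cadherin that stem cells share with epithelia, did not pass (adjusted p = 0.64). Among 9 endoderm and trophoblast genes 4 fell and none rose. Foxa2, a forkhead factor of endoderm and of the floor plate of the neural tube, was at 0.971, 1 and 2.47 CPM against 31.3 and 35.3 CPM (fell by 4.49 ± 0.53, adjusted p = 1.3e-05).

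**Figure D4:**
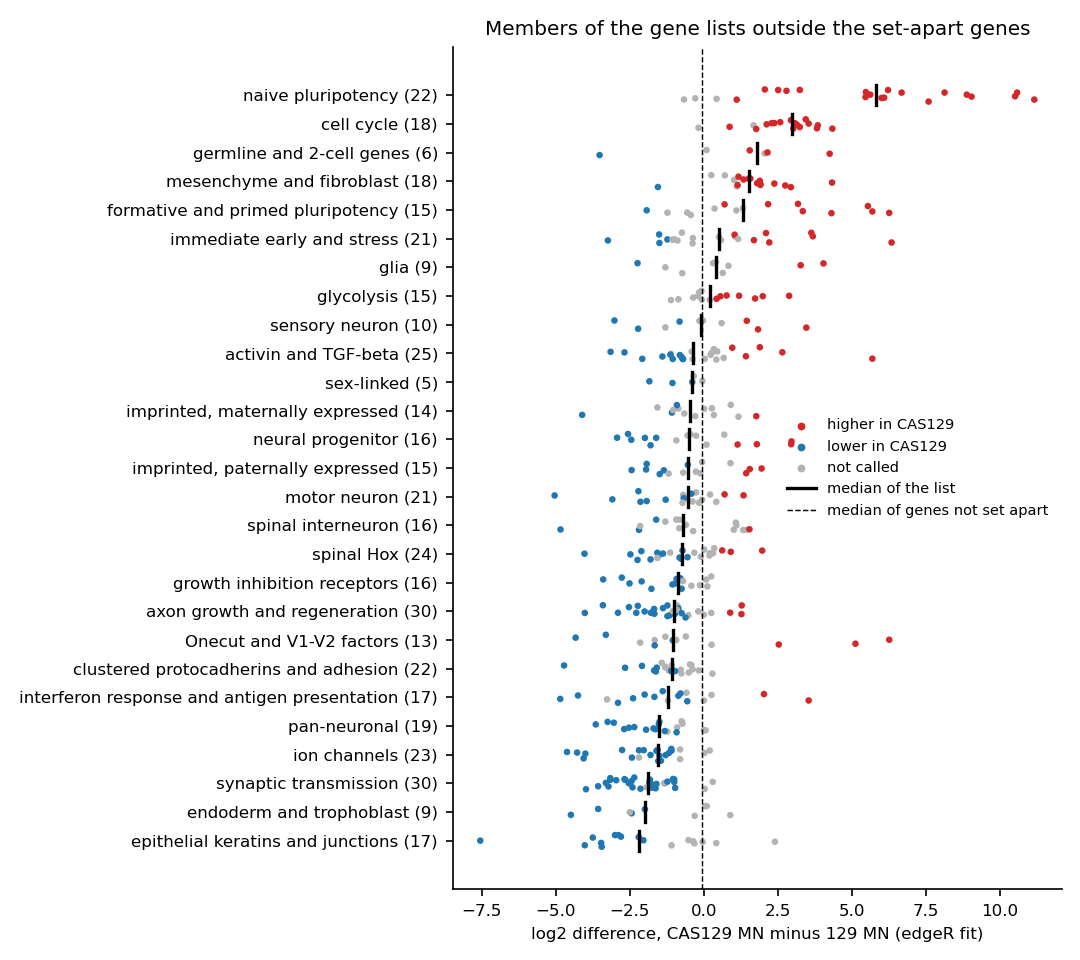
Fitted log2 difference between CAS129 MN and 129 MN (x axis) for the tested members of 27 gene lists outside the classes set apart, with the number of members in brackets. Points are genes coloured by call, bars are list medians and the dashed line is the median of all genes not set apart, -0.06. Naive pluripotency and cell cycle lie farthest to the right, and synaptic, endoderm and epithelial lists farthest to the left.

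Imprinted genes, which in some or all tissues are expressed mainly from the copy of 1 parent, had no common direction. Of 14 maternally expressed genes tested, 1 rose and 3 fell, and of 15 paternally expressed genes outside the classes set apart, 3 rose and 6 fell. Both maternally expressed counts were below the shares over all genes outside the classes, 26.2% higher and 28.1% lower. The 1 maternally expressed rise was lost when either of the 129 MN libraries was left out. Gnas, a signalling G-protein subunit with 13.1% of its exon bases overlapped, was at 57.8, 71.5 and 79.9 CPM in CAS129 MN and at 1189 and 1220 CPM in 129 MN (fell by 4.11 ± 0.18, adjusted p = 8.6e-10), with 287 CPM in 129CAS MN. Ube3a, a ubiquitin ligase, was at 56.3, 55.8 and 51.8 CPM against 117 and 115 CPM (fell by 1.08 ± 0.13, adjusted p = 1.3e-05). Igf2, a fetal growth factor, was at 418, 494 and 533 CPM against 170 and 159 CPM (1.55 ± 0.46, adjusted p = 0.012), with 27.6 CPM in 129CAS MN and 5.48 CPM in CAST MN. Its call was lost without 129 MN replicate 1 (0.059) or 2 (0.079). Plagl1, a zinc finger growth regulator, was at 348, 370 and 457 CPM against 134 and 157 CPM (1.43 ± 0.17, adjusted p = 1.5e-05). Meg3, a maternally expressed non-coding RNA with 6.79% of its exon bases overlapped, was at 574, 550 and 1292 CPM against 1178 and 1744 CPM. It did not pass (adjusted p = 0.081) but did without CAS129 MN replicate 3 (0.0077), its highest hybrid library.

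Glycolytic enzymes rose in 7 of 15 cases and fell in 1. That fall was not called when any 1 library but CAS129 MN replicate 3 was left out, with RLE or upper-quartile scaling, with no filter or one at 5 CPM, or with 129 counts thinned. Pgam1, a mutase of lower glycolysis, was at 717, 769 and 609 CPM in CAS129 MN and at 101 and 89.1 CPM in 129 MN (2.88 ± 0.21, adjusted p = 1.4e-07). Ldha, which turns pyruvate into lactate, was at 962, 937 and 775 CPM against 224 and 224 CPM (1.99 ± 0.15, adjusted p = 1.3e-07). Eno1, the enolase of most tissues, was at 1859, 1938 and 1374 CPM against 548 and 495 CPM (1.73 ± 0.23, adjusted p = 3.6e-05). CAS129 PSC were at 1519 and 1463 CPM for Pgam1 and 5319 and 4813 CPM for Eno1. CAS129 MN replicate 3 was again the lowest hybrid library for these enzymes. Gapdh, Tpi1 and Pkm were not among the tested genes, and 1 tested member was at 0 in CAS129 MN. The sum over the 15 genes was 2737 and 2748 CPM in 129 MN, below 129CAS MN (4034), CAST MN (4199) and BL6 MN (3617 to 4057). For 4 of the 7 rises CAS129 MN was above all 11 other MN libraries (57.1%), against 56.7% of all called rises outside the classes.

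Stress genes were mixed, with 7 of 21 higher and 4 lower. Slc7a11, the cystine transporter that feeds glutathione synthesis, was at 342, 337 and 309 CPM in CAS129 MN and at 3.61 and 4.5 CPM in 129 MN (6.34 ± 0.34, adjusted p = 4.4e-09). It was at 576 CPM in CAST MN, 3.68 CPM in 129CAS MN and 7.36 to 15.6 CPM in BL6 MN, so CAS129 MN and CAST MN were the 2 groups with high levels. Atf4, a factor of the integrated stress response, was at 231, 251 and 248 CPM against 116 and 121 CPM (1.04 ± 0.23, adjusted p = 0.0018). Hspa5, the main chaperone of the endoplasmic reticulum, was at 352, 378 and 390 CPM against 1195 and 926 CPM (fell by 1.51 ± 0.24, adjusted p = 0.00016), with 306 CPM in 129CAS MN. In each of these the groups were separate.

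Interferon-response and antigen presentation genes fell in 10 of 17 cases and rose in 2, with a median of -1.21. Bst2, an antiviral tether of the cell surface, was at 12, 9.83 and 7.6 CPM in CAS129 MN and at 35.5 and 26.9 CPM in 129 MN (adjusted p = 0.014, and 0.074 without 129 MN replicate 1). Ifitm2, a membrane protein that restricts viral entry, went the other way at 110, 95 and 87.7 CPM against 25.5 and 22.2 CPM (2.03 ± 0.27, adjusted p = 3.6e-05). Without 129 MN replicate 1, 5 of the 17 fell and 1 rose, and without replicate 2, 1 rose. Of 22 adhesion genes, 9 fell and none rose. Cdh7, a cadherin of neural tissue, was at 6.15, 4.17 and 4.42 CPM against 24.2 and 38.1 CPM (fell by 2.66 ± 0.46, adjusted p = 0.00031), and Cdh6 was at 28.8, 30.7 and 34.5 CPM against 62.9 and 71.4 CPM (adjusted p = 0.002).

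Genes of the X chromosome were lower as a group in CAS129 MN. Outside the classes set apart, 219 of 461 X-linked genes were lower (47.5%) and 53 higher (11.5%), against 27.4% lower and 26.8% higher of 13059 autosomal genes. The median log2 difference was -0.79 on the X and -0.04 on the autosomes. Restricting to genes with no exon overlap and a mean of at least 5 CPM left 320 X-linked genes with a median of -0.78. Relative to the mean of the 129 MN libraries, their median was -0.81, -0.74 and -0.71 in the 3 CAS129 MN libraries, -0.30 in 129CAS MN, -0.12 in CAST MN and -0.29 to -0.08 in BL6 MN. Among autosomes by the same measure, chromosomes 18 and 2 were lowest, with median differences of -0.26 and -0.24.

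The shift ran along the whole chromosome. In windows of 20 Mb the median ranged from -0.37, over the 42 genes of the first window, to -1.13 from 20 to 40 Mb. Huwe1, a ubiquitin ligase, was at 229, 198 and 148 CPM in CAS129 MN and at 711 and 757 CPM in 129 MN (fell by 1.94 ± 0.27, adjusted p = 4.8e-05). Maged1, an adaptor of neurotrophin signalling, was at 367, 370 and 427 CPM against 700 and 841 CPM (fell by 0.99 ± 0.20, adjusted p = 0.0012). Rps4x, a ribosomal protein gene, went the other way at 1472, 1433 and 1276 CPM against 326 and 247 CPM (2.28 ± 0.25, adjusted p = 5.6e-06). These 3 genes were named after their values were seen. Reads of ribosomal protein genes can be split among near-identical pseudogene copies, so the Rps4x value is uncertain.

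Xist, the RNA that coats the inactive X chromosome in female cells, was low in both groups, at 1.46, 0.833 and 1.06 CPM in CAS129 MN and 4.16 and 3.9 CPM in 129 MN (fell by 1.84 ± 0.50, adjusted p = 0.0072). CAS129 PSC were at 16.5 and 10.4 CPM. Kdm6a, a histone demethylase gene that escapes X inactivation, was at 25.6, 25.2 and 22.1 CPM against 46.9 and 54.2 CPM (fell by 1.06 ± 0.17, adjusted p = 0.00015). Karyotype and the number of X chromosomes are not given by the labels, and their part in the shift was not tested.

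**Figure D5:**
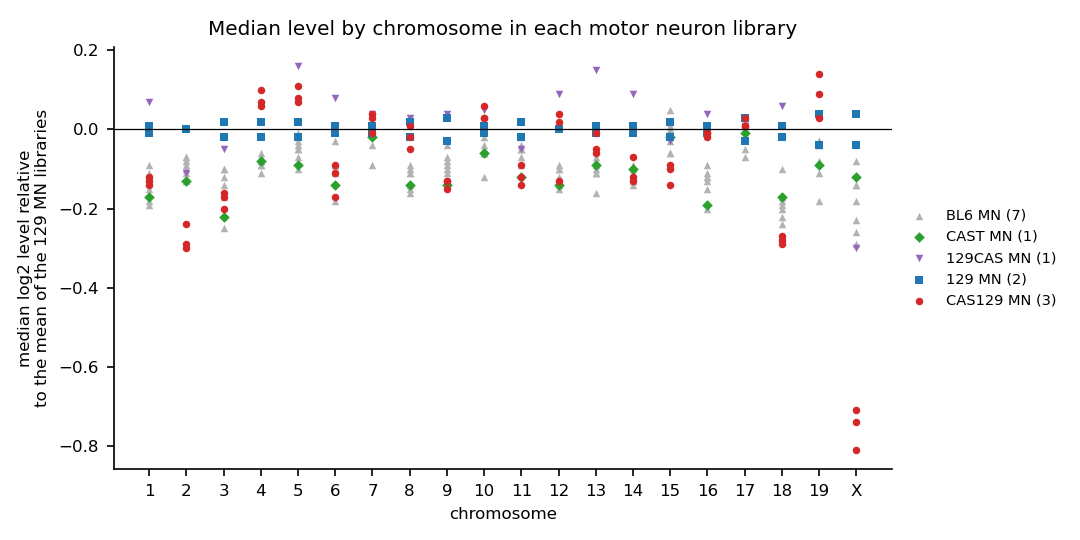
Median over genes of the log2 level in each MN library relative to the mean of the 129 MN libraries (y axis), for each chromosome (x axis), using genes outside the classes set apart with no exon overlap and a mean of at least 5 CPM. On the X the 3 CAS129 MN libraries lie at -0.81, -0.74 and -0.71, below all other libraries, and on the autosomes no CAS129 median is below -0.30.

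The largest single differences outside the classes set apart had near-absent reads in 1 group. Of the 12 largest rises among protein-coding genes, all 12 were below 1 CPM in 129 MN and 10 also in 129CAS MN. They hold Pou5f1, Tdgf1 and Gdf3. The largest fitted difference was of mt-Nd6, a mitochondrially encoded subunit of respiratory complex I, at 486, 314 and 497 CPM in CAS129 MN with no read in 129 MN, at least 12788-fold higher, and at 86.2 CPM in 129CAS MN, 250 CPM in CAST MN and 234 to 978 CPM in BL6 MN. The part of strand counting in the mt-Nd6 value was not tested. Of 13 mitochondrially encoded genes listed, 3 were tested, and 2 of these were at 0 in CAS129 MN and set apart. Another large rise was of 1700022I11Rik, a gene of unknown function at 337, 347 and 340 CPM in CAS129 MN against 0.0445 and 0.0228 CPM. CAST MN was at 198 CPM and BL6 MN at 156 to 243 CPM for it, while 129CAS MN was at 0.141 CPM. Of the 12 largest falls, all 12 were below 1 CPM in CAS129 MN and 11 were below 10% of the 129 level in 129CAS MN. Sf3b3, a subunit of the splicing machinery, was at 0.162, 0.167 and 0 CPM against 199 and 174 CPM, and its level in 129CAS MN was 0.566 CPM, in CAST MN 154 CPM. From its 2 counts in CAS129 MN the ratio of 129 to CAS129 was 1668 (95% exact interval 462 to 13775, counting error only). The exception was Plp2, an X-linked membrane protein gene with 18.4% of its exon bases overlapped, at 36.4 and 24.3 CPM in 129 MN, 51.4 CPM in 129CAS MN and 0 in CAST MN, with 0.162, 0 and 0 CPM in CAS129 MN.

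Among genes with at least 1 CPM in both groups and no exon overlap, the largest differences were examined after the values were seen. The 15 largest rises include pluripotency genes already given and L1td1, an RNA-binding protein of stem cells, at 282, 325 and 101 CPM in CAS129 MN against 4.32 and 3.74 CPM. Ptn, the secreted growth factor pleiotrophin, was at 1224, 1268 and 1450 CPM against 29.3 and 40.2 CPM (5.24 ± 0.68, adjusted p = 2.9e-05), with at most 278 CPM in any other MN library. Eln, the elastin gene of stretchable matrix, was at 109, 87.7 and 131 CPM against 1.56 and 1.73 CPM (6.04 ± 1.16, adjusted p = 0.00071). Hand2, a basic helix-loop-helix factor of heart, limb and sympathetic neurons, was at 104, 112 and 106 CPM against 4.34 and 3.88 CPM (4.70 ± 0.57, adjusted p = 1.5e-05). For Ptn, Eln and Hand2 no other MN library reached the hybrid's lowest value.

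The ribosomal protein gene Rps20 was also among the rises, at 392, 433 and 362 CPM in CAS129 MN and 5.48 and 6.05 CPM in 129 MN. Ribosomal protein genes have many near-identical pseudogene copies among which reads can be split, so this value is uncertain. Dnm1, the dynamin of synaptic vesicle recycling, was at 1.29, 0.833 and 3.71 CPM against 96.2 and 155 CPM, and at 4.35 CPM in 129CAS MN. Tmsb4x, an actin-binding thymosin gene on the X, was at 15.9, 14.5 and 29.7 CPM against 902 and 777 CPM, and at 11.1 CPM in 129CAS MN. In these 2 falls both hybrids were low, as in the class of genes at 0.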

How the data were processed

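RNA-seq read counts per gene, deposited by the authors as 1 table of whole numbers, were analysed without change. For the 20 libraries analysed here the submitters' processing notes name STAR and the GRCm38 (mm10) genome. The counting tool and its use of strand, the annotation and any separate genome for hybrids are not stated there or in the labels. Of 28 count columns, 20 matched a sample's labels and 8 were not used.

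Ensembl identifiers were matched to GENCODE M21 on GRCm38 (27031 of 27071). That annotation gave positions, opposite-strand genes and exon overlap. Genes with at least 1 CPM in at least 2 of the 14 MN libraries were scaled by TMM and tested with edgeR 4.0.16's quasi-likelihood test (R 4.3.3) in 1 fit over all MN groups, which share 1 estimate of the spread with 9 residual degrees of freedom. P-values were adjusted by Benjamini-Hochberg over all 14837 genes and called below 0.05. CPM uses TMM-scaled totals, taken from this fit for MN libraries and from a separate scaling of all 20 libraries for PSC. Levels in MN and PSC are therefore not on exactly the same scale. Log2 differences are CAS129 minus 129. Their SE was derived from the test, as the size of the log2 difference divided by the square root of its F statistic. Totals were 4497912 to 44572794 counts per library, and intervals (95%, exact) and floors of 3 counts cover counting error only. The fit was tested on simulated data.

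Named genes were the markers given for the comparison, fixed motor neuron and control genes, up to 4 called members of each of 28 lists with the highest mean CPM, the 12 largest protein-coding rises and falls with at least 5 CPM in the higher group, 8 genes at 0, 6 genes inside an opposite-strand gene, and the Onecut and keratin families. Other named genes are members of the lists or were added after seeing the data. The members, lists and rules were chosen with earlier results of these data known. Alternatives were DESeq2 1.42.0, other scalings and filters, fewer libraries, thinned 129 counts, a replicate block and removal of the classes set apart before fitting.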

Additional observations from a re-analysis of the deposited data

How the results depend on the processing

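The number of genes called, 8408, stayed within 1.5 times under every alternative but 1, from 6104 to 7758 when 1 library was left out, and outside the classes set apart from 5146 to 6726 against 7343. The exception was 5567 when both classes and all genes with exon overlap were removed before fitting, an alternative chosen after seeing the data that leaves 11037 genes to test. Upper-quartile scaling moved the median of all genes by 0.17 on the log2 scale, to 0.04, and the absence of a filter moved it by -0.35, to -0.48 over 22574 genes. The median of genes inside an opposite-strand gene, 0.83, was 0.87 with RLE scaling, 1.01 with upper-quartile scaling, 0.24 for genes with any exon overlap, and 0.72 to 0.99 with 1 library left out. The X chromosome median, -0.79, was -0.89 with the classes set apart included, -0.62 with upper-quartile scaling, where autosomes were at 0.14, and -0.82 to -0.69 with 1 library left out. List members called numbered 297, and 213 to 281 with 1 library left out.

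The groups share 2 replicate numbers, and deviations of same-numbered libraries correlated at 0.102 and 0.054. With 2 libraries of 129 MN their deviations mirror each other, so these values cannot decide whether the numbers pair the libraries. With the replicate number as a block, 7562 genes were called, 6531 outside the classes and 278 list members, and the calls of Xist (adjusted p = 0.071), Prph (0.062) and Hoxb2 (0.11) were lost. Isl1, not called, changed sign to 0.14 with 129 MN thinned, and Mnx1, not called, to -0.03 without 129 MN replicate 1 and -0.43 without CAS129 MN replicate 3, the lowest of a range that reached 0.58 without CAS129 MN replicate 2. Fitting only the 5 libraries called Tubb3 (adjusted p = 8.2e-04) and Gap43 (0.0035). The cause of these changes was not tested. CAS129 MN libraries, the shallower group, limit what can be seen at low levels there.

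Counts of list members moved by over 1.5 times under some settings beside those given with the lists. Fitting only the 5 libraries gave 8 falls in place of 4 for Onecut and ventral interneuron factors, 4 rises and 5 falls in place of 1 and 3 for spinal interneurons, 9 rises in place of 5 for activin and TGF-beta genes, and 11 rises and 7 falls in place of 7 and 4 for stress genes. It also gave 3 falls in place of 1 for formative pluripotency, 2 rises and 5 falls in place of 1 and 3 for maternally expressed genes, 2 falls in place of 1 for glycolysis, and 1 rise and 3 falls in place of 2 and 1 for glia. Removing both classes and genes with exon overlap first gave 17 falls in place of 26 for synaptic genes, 5 in place of 8 for motor neuron genes, 4 in place of 10 for interferon genes and 1 in place of 3 for sex-linked genes, in a fit that no longer held the members with overlap. With the replicate block 1 Hox gene rose in place of 3, 1 sex-linked gene fell in place of 3 and 2 spinal interneuron genes rose in place of 1. Upper-quartile scaling gave 8 rises in place of 5 for activin and TGF-beta genes, both it and DESeq2 gave 2 rises in place of 1 for spinal interneurons, and thinned 129 counts gave 1 glial rise in place of 2.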
